A study of Mus musculus with 9 samples.

Results

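The 32 genes described here encode the enzymes of glycolysis, the lactate dehydrogenases, carriers of glucose and lactate across membranes, the enzymes that set fructose 2,6-bisphosphate, and the enzymes of the pentose phosphate pathway. They were chosen by name, as a fixed list of symbols, with earlier results of these data known. A gene was kept where the mean normalized count over 9 microglial libraries was at least 10. All 32 passed, among 23134 genes in the table and 16575 that passed the same filter. The libraries are polyadenylated RNA from cells of mice aged 2 to 3 months that were depleted of astrocytes with beads against ACSA-2 and then collected with beads against CD11b, a surface integrin of microglia that monocytes, neutrophils and NK cells also carry. The groups, with 3 libraries each, are control mice given saline, control mice given lipopolysaccharide (LPS, a bacterial cell wall component) at 5 mg/kg into the peritoneum, and mice with a conditional knockout (cKO) of Chd8 in astrocytes given the same dose of LPS, with brains taken 72 hours after LPS. The gene was targeted in astrocytes and not in the cells profiled here, the Cre driver is not given in the sources used here, and a saline group of the knockout was not analysed here. All 9 titles carry the word saline, those of control LPS beside LPS and those of the cKO libraries alone, while the genotype and treatment labels and the authors' comparison names give LPS for both, which was used.

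Glycolysis splits glucose into pyruvate in the cytosol and yields ATP without oxygen, and lactate dehydrogenase turns pyruvate into lactate, which monocarboxylate carriers export. The pentose phosphate pathway branches off at glucose 6-phosphate; its oxidative arm makes NADPH, used for biosynthesis, for glutathione and by the NADPH oxidase of phagocytes, and its non-oxidative arm makes ribose phosphate and returns carbon to glycolysis. Macrophages and microglia exposed to LPS are known for increased use of glucose through both routes.

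The libraries held 10845937 to 86571481 recovered reads, with the shallowest library in the saline group. Markers of microglia summed to 953950 to 1609900 normalized counts per library, well above those of any other cell type on the lists. Control LPS library 1 stood apart: the 11 astrocyte markers summed to 95337 normalized counts there and to 5213 to 9225 in the other 8 libraries. Among the 3 control LPS libraries, library 1 had the lowest value for 25 of the 32 genes, where it was the lowest for 41.3% of all genes tested. Counts over the 32 genes, and the values of some of them, are therefore also given without it. Leaving out the library that is lowest for most of these genes raises their control LPS means. Larger changes against saline, and lower values of cKO LPS against control LPS, follow in part from that choice. They are no separate support. Where no value without library 1 is given, the control LPS result includes it and may depend on it. The labels do not say that the numbered samples of a group are separate mice, so the p-values measure the spread between these libraries, which may in part be technical. In bulk RNA, a change in the share of a cell type and a change in RNA per cell cannot be told apart.

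LPS was accompanied by higher RNA of a small set of these genes, and by positive log2 fold changes without a call in most of the others. In control mice, Slc2a6, a hexose transporter located on lysosomes, rose 19.8-fold; Gpi1, the isomerase of glucose 6-phosphate, rose 1.95-fold; Pfkfb4, which sets fructose 2,6-bisphosphate, rose 1.64-fold; and Eno1, the main enolase, rose 1.59-fold. In cKO mice given LPS, Slc2a6 (17.9-fold), Pfkfb3 (2.29-fold), Gpi1 (1.87-fold) and Pfkfb4 (1.62-fold) rose against control saline. Of these calls, only those of Slc2a6 held in all 9 fits that left out 1 library. In control LPS, those of Eno1 and Pfkfb4 held in 1 of the 9. Between cKO LPS and control LPS, none of the 32 genes differed past the threshold.

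The test was limma on log2(normalized count + 1), fitted across all 16575 genes, with Benjamini-Hochberg adjusted p under 0.05 as the threshold. Since the genes were chosen with earlier results known, the values of all genes beside them are description and not a test. For control LPS against control saline, 4 of 32 genes were called higher and 0 lower, against 4.68% of all genes called higher and 0.923% called lower. The median log2 fold change of the 32 genes was 0.42, with 27 above 0, where the median of all genes was 0.02 and 51.8% were above 0. Without control LPS library 1, 11 of the 32 were called higher and 0 lower, against 8.07% and 2.94% of all genes, and their median was 0.59. The 11 were Gpi1, Tpi1, Eno1, Ldha, Slc2a3, Slc2a6, Slc16a3, Pfkfb3, Pfkfb4, G6pdx and Pgd. With quantile normalization, which moved the median of all genes to -0.10, 568 of 811 calls over all genes were higher, against 776 of 929, and the 32 genes had a median of 0.32 with 3 called, which is again above that of all genes. In the authors' deposited table, 7 of the 31 genes with an adjusted p were higher and 0 lower, against 7.75% and 2.16% of all genes, and Pfkm had no p there. By values alone, 13 of the 32 had every control LPS library above every saline library and 0 had every library below, against 13.4% and 8.23% of all genes.

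For cKO LPS against control saline, which uses the same saline libraries, 4 of 32 genes were called higher and 0 lower, against 5.41% and 1.41% of all genes. The median log2 fold change of the 32 genes was 0.32, with 25 above 0, where that of all genes was -0.01 and 49.3% were above 0. When control LPS library 1 was taken out of the joint fit, which changes the estimate of the spread but not these means, 6 were called higher and 1 lower, against 7.54% and 2.46% of all genes; Hk1 was the one called lower. In the authors' deposited table, 5 were higher and 1 lower, against 8.74% and 3.43% of all genes. The libraries of the groups did not overlap for 14 genes that were higher and 1 that was lower, against 17.9% and 13.8% of all genes.

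**Figure D1:**
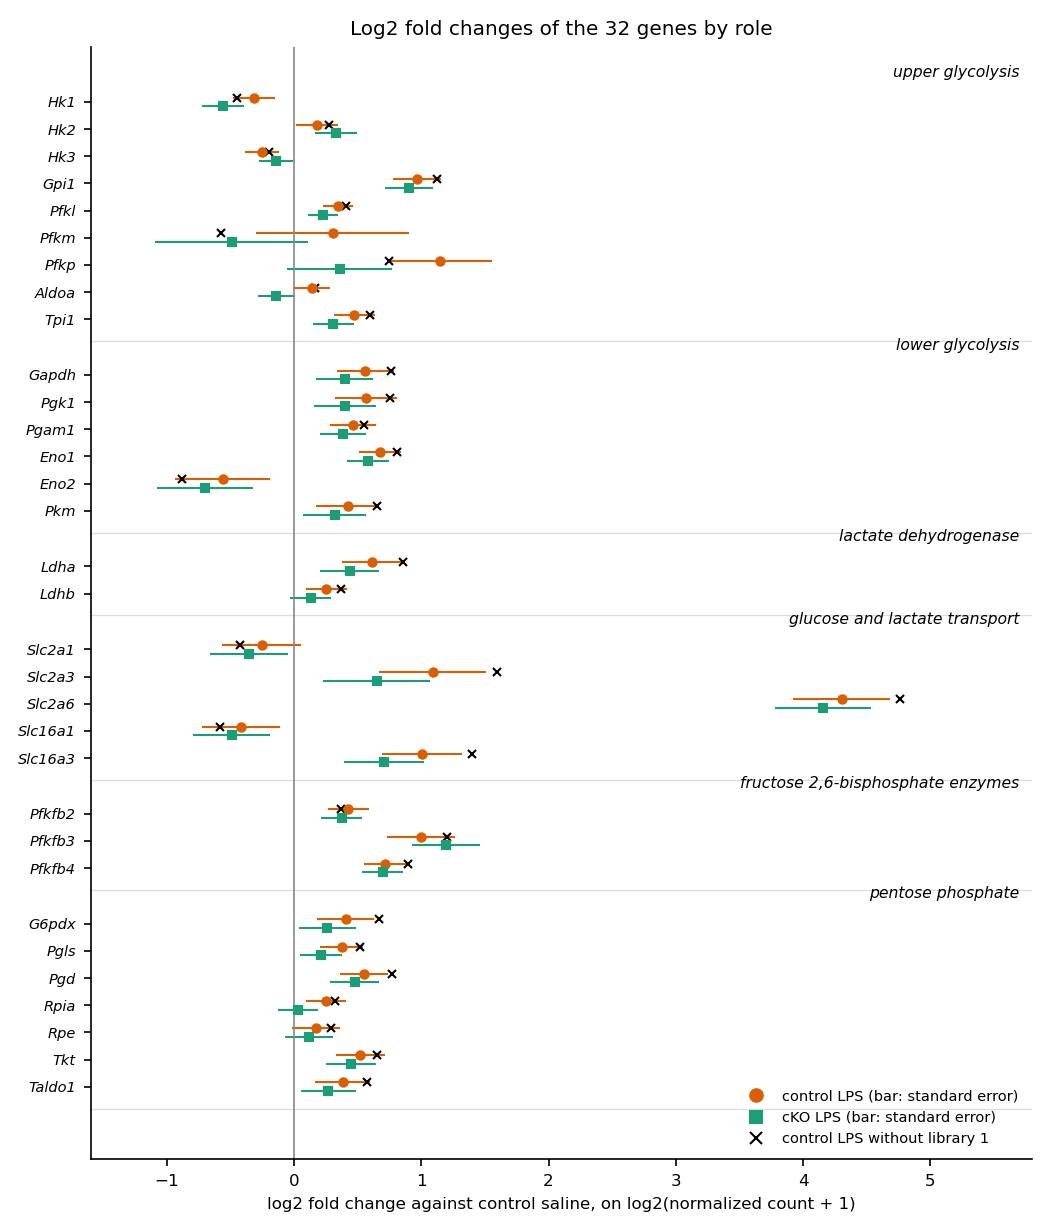
Log2 fold changes against control saline of the 32 genes, grouped by role on the vertical axis, for control LPS (circles) and cKO LPS (squares), with standard errors as bars; crosses give control LPS without library 1. Slc2a6 lies near 4 in both comparisons, while the circles and squares of the other genes lie between -0.70 and 1.20.

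Slc2a6 (GLUT6; mm10 chr2:27021363-27027998, minus strand) was the lowest of the 32 genes in saline, at 38.1 normalized counts per kb of exon. Its normalized counts were 91.8, 69.3 and 83.4 in control saline, 856, 3062 and 1616 after LPS in controls and 1371, 1425 and 1603 in cKO LPS. The groups given LPS did not overlap with saline, and control LPS spread over a wider range than cKO LPS. On the log2 scale the rise was 4.30 ± 0.38 (SE; adjusted p = 0.00074) in control LPS and 4.16 ± 0.38 (adjusted p = 0.000793) in cKO LPS, and 4.76 in control LPS without library 1. Both calls held in the 9 fits that left out 1 library each. Without LPS, Slc2a6 gave 1.39% ± 0.16 (SD, n = 3) of the summed level per kb of Slc2a1, Slc2a3 and Slc2a6, and it gave 25.4% ± 12.0 in control LPS and 24.3% ± 7.2 in cKO LPS.

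The 300-base windows around the annotated start of the 3 genes called in both LPS comparisons, which share the saline libraries, are shown next, since the calls that recur in both rest on these genes. Each runs from 250 bases before the start to 50 bases after it, on the strand of its gene, taken from RefSeq (GRCm38.p6, the assembly of mm10). Capitals mark the core letters of the hypoxia response element, ACGTG or GCGTG, on either strand (CACGT or CACGC). The Slc2a6 window is chr2:27027949-27028248 (minus strand), that of Gpi1 is chr7:34230287-34230586 (minus strand) and that of Pfkfb4 is chr9:108991652-108991951 (plus strand).
Slc2a6: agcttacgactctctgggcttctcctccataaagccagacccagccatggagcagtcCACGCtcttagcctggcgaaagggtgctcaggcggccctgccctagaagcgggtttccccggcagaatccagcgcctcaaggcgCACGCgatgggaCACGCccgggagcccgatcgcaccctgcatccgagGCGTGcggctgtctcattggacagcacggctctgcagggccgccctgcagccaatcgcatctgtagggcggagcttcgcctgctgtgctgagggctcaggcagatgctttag
Gpi1: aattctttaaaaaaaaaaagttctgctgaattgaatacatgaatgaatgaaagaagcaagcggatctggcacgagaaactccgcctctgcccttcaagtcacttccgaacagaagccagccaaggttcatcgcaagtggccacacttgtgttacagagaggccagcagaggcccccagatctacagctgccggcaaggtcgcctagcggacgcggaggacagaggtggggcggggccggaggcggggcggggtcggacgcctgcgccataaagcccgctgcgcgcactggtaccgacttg
Pfkfb4: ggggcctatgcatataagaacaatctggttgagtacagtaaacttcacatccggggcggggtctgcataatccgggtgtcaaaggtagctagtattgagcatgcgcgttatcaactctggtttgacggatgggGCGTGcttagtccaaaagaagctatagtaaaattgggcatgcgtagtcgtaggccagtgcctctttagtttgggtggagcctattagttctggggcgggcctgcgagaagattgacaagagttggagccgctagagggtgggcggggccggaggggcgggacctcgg
The Slc2a6 window held 4 such cores, the Pfkfb4 window held 1 and the Gpi1 window held 0. All of them were of the GCGTG form, and none of the 3 windows held ACGTG. The number of cores per window was not counted over all genes. A window was found for 31 of the 32 genes, all but Slc2a3, with 45 windows in all. ACGTG was present in at least 1 window of 16 of these 31 genes (51.6%), against 27.9% of the 12476 tested genes with a window, and in 44.4% of the members' windows against 24.0% of all windows. GCGTG was present for 21 genes (67.7%, against 52.1% of all). The E-box CACGTG, which contains ACGTG, was present for 5 genes (16.1%, against 11.0%). The GC box GGGCGG was present for 25 genes (80.7%, against 63.6%). The antioxidant response core TGACNNNGC was present for 5 genes (16.1%, against 16.5%) and the kappa B motif for 3 genes (9.68%, against 7.22%). A gene counts if any of its windows matches. By window, GCGTG was in 57.8% of the members' windows against 46.5% of all, and the GC box in 62.2% against 57.25%. The shares were 11.1% against 9.2% for the E-box, 11.1% against 13.9% for the antioxidant core and 6.67% against 6.13% for kappa B. All motifs were searched on both strands, and a match describes letters in these windows only.

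Of the remaining transport genes, Slc2a3 (GLUT3; chr6:122727809-122801640, minus strand), a glucose transporter of neurons and leukocytes, was at 301, 363 and 472 normalized counts in control saline, 392, 1369 and 930 after LPS in controls and 435, 603 and 760 in cKO LPS. Control LPS libraries 2 and 3 lay above every saline library, and library 1 lay within the saline range. Against saline its log2 fold change was 1.09 ± 0.42 (adjusted p = 0.195) for control LPS and 1.60 (adjusted p = 0.0084) without library 1, and for cKO LPS it was 0.65 ± 0.42 (adjusted p = 0.4). Slc16a3 (MCT4; chr11:120948480-120960868, plus strand), an exporter of lactate, was at 2146, 1915 and 2159 normalized counts in control saline, 2412, 7012 and 4264 after LPS in controls and 3154, 3772 and 3250 in cKO LPS. Its groups did not overlap with saline in either comparison. Slc16a3 had a log2 fold change of 1.01 ± 0.31 (adjusted p = 0.109) in control LPS, 1.40 (adjusted p = 0.00283) without library 1 and 0.71 ± 0.31 (adjusted p = 0.227) in cKO LPS.

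Several markers of blood cells, among them CD11b-bearing ones, also rose with LPS. Of 11 neutrophil markers, 10 rose in control LPS and 8 in cKO LPS against saline; they summed to 28959 to 49178 normalized counts in saline, 70053, 161810 and 118300 after LPS in controls, and 69844, 94802 and 52718 in cKO LPS, with Ly6g at 0 in at least 1 library. Csf3r, a receptor gene and the 1 neutrophil marker called in neither comparison, made most of that sum except in control LPS library 2. Its value there was 68604. The other 10 summed to 764 to 1630 in saline, 11273, 93208 and 55961 after LPS in controls, and 10933, 20436 and 15146 in cKO LPS. Of 10 monocyte markers, 6 rose in each comparison; they summed to 6297 to 9138 in saline, 16544, 43409 and 21917 after LPS in controls, and 22156, 14533 and 28825 in cKO LPS. The 6 called in either comparison summed to 410 to 671, to 2899, 22466 and 10823, and to 4348, 5687 and 11885, and the rest of the sum came from Fn1, F13a1, Vcan and Ccr2. Of 5 tested T and NK cell markers, 3 rose in each comparison; all 8 in the table summed to 44.3 to 221 in saline, 457, 1104 and 3542 after LPS in controls, and 853, 985 and 694 in cKO LPS, with Cd3e, Cd3d, Cd3g and Ncr1 at 0 in at least 1 library. Of 4 tested B cell markers, 1 rose in control LPS and 2 in cKO LPS, with sums of 524 to 1271, 732 to 1686 and 1412 to 1520. Within control LPS, Slc2a6, Slc2a3 and Slc16a3 were each lowest in library 1 and highest in library 2, as were the neutrophil and monocyte sums, also over the called markers alone; the T and NK cell sum was highest in library 3. Within cKO LPS, Slc2a6, Slc2a3 and the sum of the 6 called monocyte markers were each lowest in library 1 and highest in library 3. The other sums had another order there. Both neutrophil sums and Slc16a3 were highest in library 2. The sum of all 10 monocyte markers was lowest in library 2, and the T and NK cell sum was lowest in library 3. The part of these cells in the values of Slc2a6, Slc2a3 and Slc16a3 was not tested.

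Slc2a1 (GLUT1), the transporter of the blood-brain barrier endothelium and of most cells, and Slc16a1 (MCT1), a carrier of lactate and ketone bodies, were not called. Slc2a1 was at 9756, 6383 and 9848 normalized counts in control saline, 9029, 7231 and 5516 after LPS in controls and 10611, 5131 and 5374 in cKO LPS, with overlap between all groups. Against saline, Slc2a1 had log2 fold changes of -0.26 ± 0.31 and -0.36 ± 0.31, for control LPS and for cKO LPS, and Slc16a1 of -0.42 ± 0.31 and -0.49 ± 0.31. The 8 endothelial markers, none called and none at 0, summed to 37490, 17952 and 25907 in saline, 23619, 17254 and 10764 after LPS in controls and 31585, 11174 and 7625 in cKO LPS. In cKO LPS library 1, the endothelial sum, Slc2a1 and Slc16a1 were each the highest of the group. The part of endothelial RNA in these 2 genes was not tested.

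**Figure D2:**
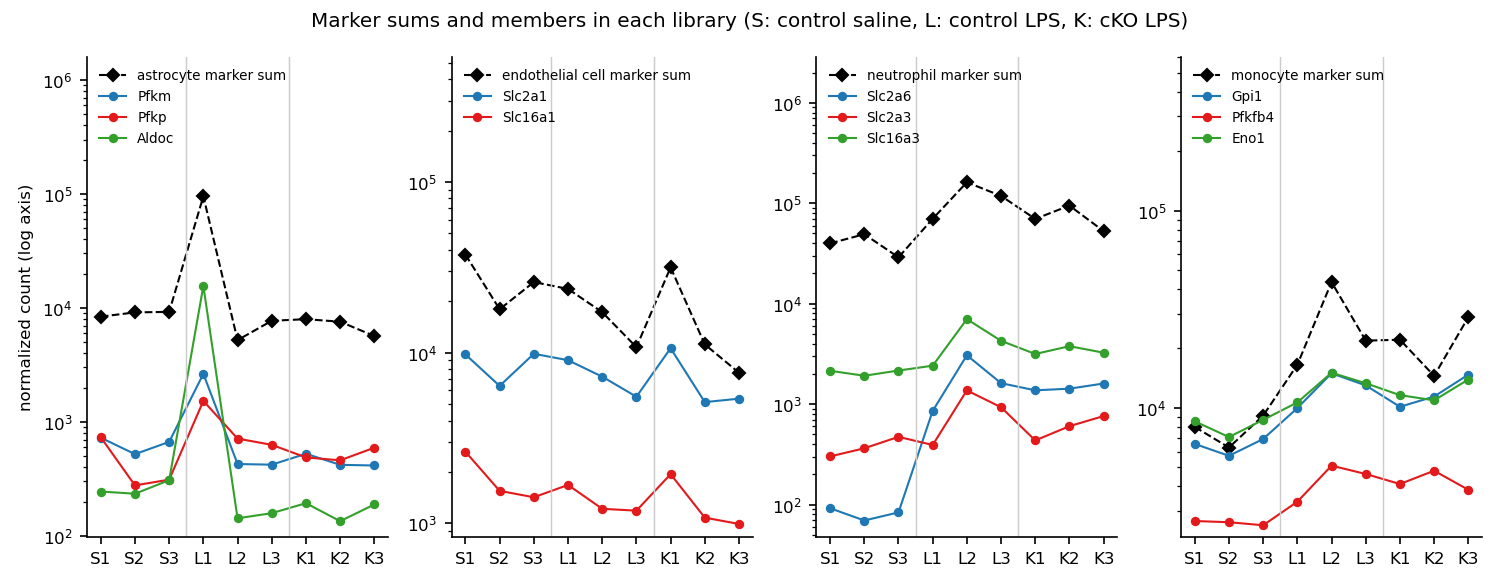
Normalized counts on a log axis in each of the 9 libraries (S, control saline; L, control LPS; K, cKO LPS), for summed markers of 4 cell types (dashed) and for members or Aldoc (solid); lines only join the points. The astrocyte sum, Pfkm, Pfkp and Aldoc peak in L1, and the neutrophil and monocyte sums are highest in L2.

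The upper part of glycolysis takes glucose to triose phosphates and contains 9 of the 32 genes. In control LPS, 1 of the 9 rose, 0 fell and the median log2 fold change was 0.30. In cKO LPS, 1 rose, 0 fell and the median was 0.23. Counts by role are to be read beside the shares of all genes called higher, 4.68% in control LPS and 5.41% in cKO LPS. Gpi1 (chr7:34201330-34230336, minus strand), the called gene, was at 6564, 5715 and 6953 normalized counts in control saline, 9976, 14975 and 12995 after LPS in controls and 10130, 11413 and 14738 in cKO LPS. No library given LPS overlapped with saline. Gpi1 had a log2 fold change of 0.97 ± 0.19 (adjusted p = 0.0206) in control LPS and 0.90 ± 0.19 (adjusted p = 0.0243) in cKO LPS. The first call was lost in the fits without saline library 1 or 2 or control LPS library 2 or 3, and the second in those without any 1 saline library or cKO LPS library 2 or 3 (adjusted p up to 0.0824 and 0.088). In the annotation Gpi1 shares 356 exon bases with Gm26762 on the opposite strand, and the sources used here do not say whether counting was strand-aware.

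Hexokinases phosphorylate glucose on entry. Hk2, the inducible form, and Hk3, which is typical of myeloid cells, were at 10045 ± 1687 and 6582 ± 1065 normalized counts in saline (SD, n = 3), and Hk1, the form of most tissues, was at 2207 ± 264. None was called with all libraries. Hk1 was at 2503, 1997 and 2121 normalized counts in control saline and at 1577, 1600 and 1314 in cKO LPS, without overlap. Its log2 fold change there was -0.56 ± 0.17 (adjusted p = 0.0861), with adjusted p = 0.0485 when control LPS library 1 was out of the fit and 0.0412 in the authors' deposited table. With the replicate number as a block, though the labels give no pairing, Hk1 was called lower (adjusted p = 0.0428). It was also called lower with DESeq2 (0.0286) and with array weights (0.0114). It was not called with edgeR, with quantile normalization or in a fit on the 2 groups compared. Leaving out any single library other than control LPS library 1 gave no call of Hk1 either. In control LPS the log2 fold change of Hk1 was -0.32 ± 0.17 (adjusted p = 0.359). Hk2 had log2 fold changes of 0.18 ± 0.16 and 0.33 ± 0.16, and Hk3 of -0.25 ± 0.14 and -0.14 ± 0.14, in control LPS and cKO LPS.

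Phosphofructokinase commits sugar to glycolysis and is made of liver (Pfkl), muscle (Pfkm) and platelet (Pfkp) type subunits. Pfkl supplied most of its RNA, 78.2% ± 4.3 of the family's summed level per kb in saline, 72.6% ± 18.5 in control LPS, with 51.2% in library 1, and 82.8% ± 2.3 in cKO LPS. Pfkm (chr15:98092589-98132451, plus strand) was at 727, 521 and 667 normalized counts in control saline, 2639, 427 and 421 after LPS in controls and 525, 420 and 414 in cKO LPS. Pfkp (chr13:6579768-6648777, minus strand) was at 732, 277 and 311 in control saline, 1526, 713 and 629 after LPS in controls and 488, 460 and 593 in cKO LPS. The highest value of each was in control LPS library 1, the library with the high astrocyte sum, where Aldoc, the astrocytic aldolase, was at 15583 against 135 to 308 in the other 8. For control LPS against control saline the log2 fold change of Pfkm was 0.30 ± 0.60 and turned to -0.58 without library 1, and that of Pfkp was 1.14 ± 0.42 (adjusted p = 0.17) and 0.75 without it. None of the 11 astrocyte markers was called or at 0. The part of astrocyte RNA in the Pfkm and Pfkp values of that library was not tested. Pfkp also shares 748 exon bases with Pitrm1 on the opposite strand.

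Aldoa, which splits fructose 1,6-bisphosphate, had a log2 fold change of 0.14 ± 0.14 in control LPS and -0.14 ± 0.14 in cKO LPS. Tpi1, which interconverts the triose phosphates, had 0.47 ± 0.16 (adjusted p = 0.143) in control LPS, 0.60 (adjusted p = 0.0471) without library 1 and 0.31 ± 0.16 in cKO LPS.

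The lower part of glycolysis, from Gapdh to Pkm, yields ATP and pyruvate, and 5 of its 6 genes had positive log2 fold changes in both LPS groups. In control LPS 1 of the 6 rose and 0 fell, with a median of 0.51; in cKO LPS 0 rose and 0 fell, with a median of 0.39. Eno1 (chr4:150236721-150248879, plus strand) was at 8544, 7114 and 8696 normalized counts in control saline, 10659, 15065 and 13328 after LPS in controls and 11604, 10920 and 13925 in cKO LPS. Both LPS groups lay wholly above saline. Eno1 had a log2 fold change of 0.67 ± 0.17 (adjusted p = 0.0489) in control LPS and 0.58 ± 0.17 (adjusted p = 0.0732) in cKO LPS. In cKO LPS it passed when control LPS library 1 was out of the fit (adjusted p = 0.0389), with DESeq2 (adjusted p = 0.0141) and with array weights (adjusted p = 0.0188). It also passed in the authors' deposited table (adjusted p = 0.0209). In cKO LPS it did not pass with edgeR, quantile normalization, the replicate block or a fit on the 2 groups compared. The call in control LPS held in 1 of the 9 fits that left out a library, that without control LPS library 1, and was lost without any one of the other 8 (adjusted p up to 0.182). That call was also lost with edgeR (adjusted p = 0.0686), quantile normalization (0.0838), the replicate block (0.0579) and a fit on the 2 groups compared (0.107). Over all 19 alternatives it held in 5. Eno1b, an intronless copy of Eno1, had at most 12.0 normalized counts in any library.

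Gapdh, Pgk1, Pgam1 and Pkm, which carry out the oxidation, the ATP-forming steps and the mutase step between them, had log2 fold changes of 0.42 to 0.57 in control LPS and 0.32 to 0.40 in cKO LPS, with no call. Gapdh had the highest level per kb of the 32 genes in saline, 12682 normalized counts per kb, followed by Ldhb at 11048, Aldoa at 6072 and Pkm at 5703. Reads of such genes can be shared with processed pseudogenes, so their counts are uncertain where counting split them. Eno2, the enolase of neurons, went the other way without a call, at 201, 104 and 154 normalized counts in control saline, 155, 67.9 and 93.8 in control LPS, and 75.7, 84.8 and 115 in the knockout given LPS. The change on the log2 scale was -0.56 ± 0.38 and -0.70 ± 0.38, with overlap between all groups.

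Ldha favours the making of lactate and Ldhb its use; neither was called in the fit with all libraries. Ldha (chr7:46841475-46855627, plus strand) was at 5669, 4412 and 5400 normalized counts in control saline, 5632, 10697 and 8033 after LPS in controls and 6485, 6061 and 8530 in cKO LPS. Control LPS library 1 lay within the saline range, and all 3 cKO LPS libraries lay above it. Ldha had a log2 fold change of 0.61 ± 0.23 (adjusted p = 0.191) in control LPS, 0.85 (adjusted p = 0.0273) without library 1 and 0.44 ± 0.23 (adjusted p = 0.309) in cKO LPS. Ldhb had 0.25 ± 0.16 and 0.13 ± 0.16, the second turning to -0.025 with quantile normalization.

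The Pfkfb enzymes make and break fructose 2,6-bisphosphate, the strongest activator of phosphofructokinase, and all 3 had positive log2 fold changes in both LPS groups. In control LPS 1 of the 3 rose and in cKO LPS 2 did, with medians of 0.71 and 0.70. Pfkfb3 (chr2:11471433-11554077, minus strand), the form with the highest kinase activity, was at 18210, 15838 and 9309 normalized counts in control saline, 20918, 32947 and 31057 after LPS in controls and 28498, 33065 and 34261 in cKO LPS. Saline library 3, the shallowest, was the lowest, and both LPS groups lay above saline. Pfkfb3 had a log2 fold change of 1.00 ± 0.27 (adjusted p = 0.0686) in control LPS, 1.20 (adjusted p = 0.0222) without library 1, and 1.20 ± 0.27 (adjusted p = 0.0307) in cKO LPS. The call in cKO LPS was lost in the fits without saline library 2 or 3 or any 1 cKO LPS library (adjusted p up to 0.11).

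Pfkfb4 (chr9:108991778-109032228, plus strand) had the narrowest saline group of the named genes, at 2670, 2633 and 2541 normalized counts, with 3345, 5094 and 4623 after LPS in controls and 4112, 4802 and 3844 in cKO LPS. No library given LPS overlapped with saline. The log2 fold change was 0.71 ± 0.16 (adjusted p = 0.0368) in control LPS and 0.70 ± 0.16 (adjusted p = 0.0358) in cKO LPS. The first call held only in the fit without control LPS library 1 and was lost without any one of the other 8 libraries; the second held in the fits without control LPS library 1 or 2 and was lost in the other 7 (adjusted p up to 0.137 and 0.129). Pfkfb2, the form of heart, had 0.43 ± 0.16 (adjusted p = 0.186) and 0.37 ± 0.16 (adjusted p = 0.213), and 1241 of its 5023 exon bases lie in Gm29427 on the same strand.

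**Figure D3:**
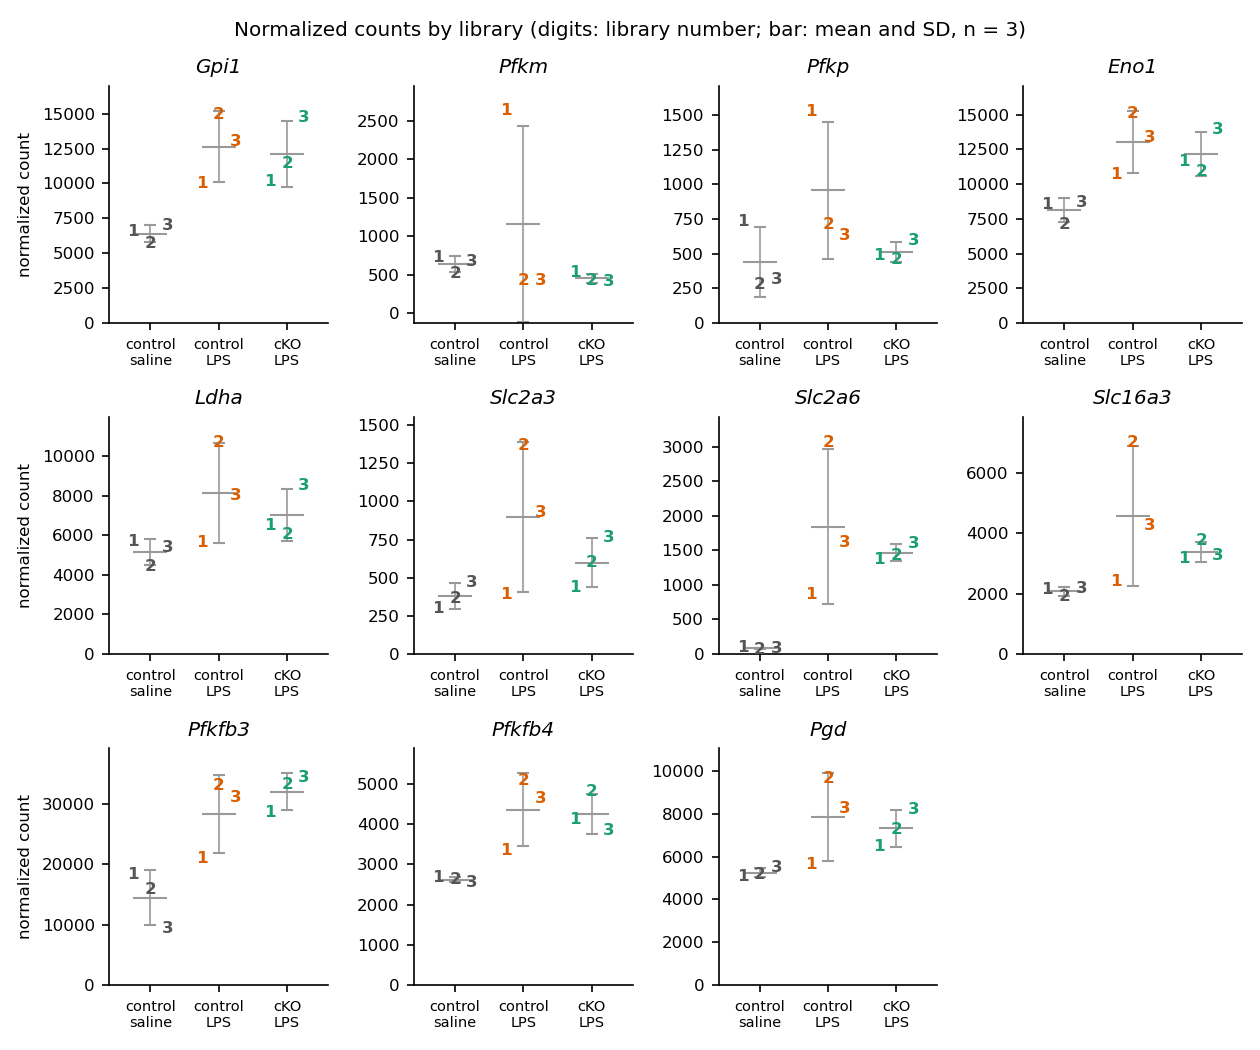
Normalized counts of 11 genes in each library (digits give the library number) by group, with the mean and SD of n = 3. Slc2a6 lies under 100 in saline and from 856 upward after LPS, and control LPS library 1 is the lowest of its group for all but Pfkm and Pfkp.

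All 7 genes of the pentose phosphate pathway had positive log2 fold changes in both LPS groups, except that Rpia in cKO LPS turned to -0.015 with quantile normalization and -0.001 with DESeq2, and none was called with all libraries. The medians were 0.38 in control LPS and 0.26 in cKO LPS. Pgd (chr4:149149991-149166771, minus strand), the second NADPH-forming enzyme of the oxidative arm, was at 5093, 5151 and 5487 normalized counts in control saline, 5635, 9655 and 8270 after LPS in controls and 6479, 7282 and 8199 in cKO LPS. Both LPS groups lay above saline, control LPS library 1 by the least. The log2 fold change was 0.55 ± 0.19 (adjusted p = 0.152) in control LPS, 0.77 (adjusted p = 0.0104) without library 1 and 0.48 ± 0.19 (adjusted p = 0.184) in cKO LPS. G6pdx, the entry enzyme, had 0.41 ± 0.22 (adjusted p = 0.379), 0.67 (adjusted p = 0.0391) without library 1, and 0.26 ± 0.22 in cKO LPS. Pgls, the lactonase between them, had 0.37 ± 0.17 and 0.21 ± 0.17.

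In the non-oxidative arm, Tkt and Taldo1, which transfer carbon units between sugars, had log2 fold changes of 0.52 ± 0.20 and 0.38 ± 0.22 after LPS in controls and 0.45 ± 0.20 and 0.27 ± 0.22 in cKO LPS. Tkt lay above saline in all 6 libraries given LPS. Rpia and Rpe, which interconvert the pentose phosphates, had 0.25 ± 0.16 and 0.17 ± 0.19 after LPS in controls and 0.03 ± 0.16 and 0.12 ± 0.19 in cKO LPS; Rpe shares 443 exon bases with Kansl1l on the opposite strand. Markers of dividing cells, which draw on ribose phosphate for nucleotides, rose for 10 of 10 genes in both comparisons, and summed to 581 to 646 normalized counts in saline, 3870 to 13578 in control LPS and 10166 to 27359 in cKO LPS. Their part in the pentose phosphate values was not tested.

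**Figure D4:**
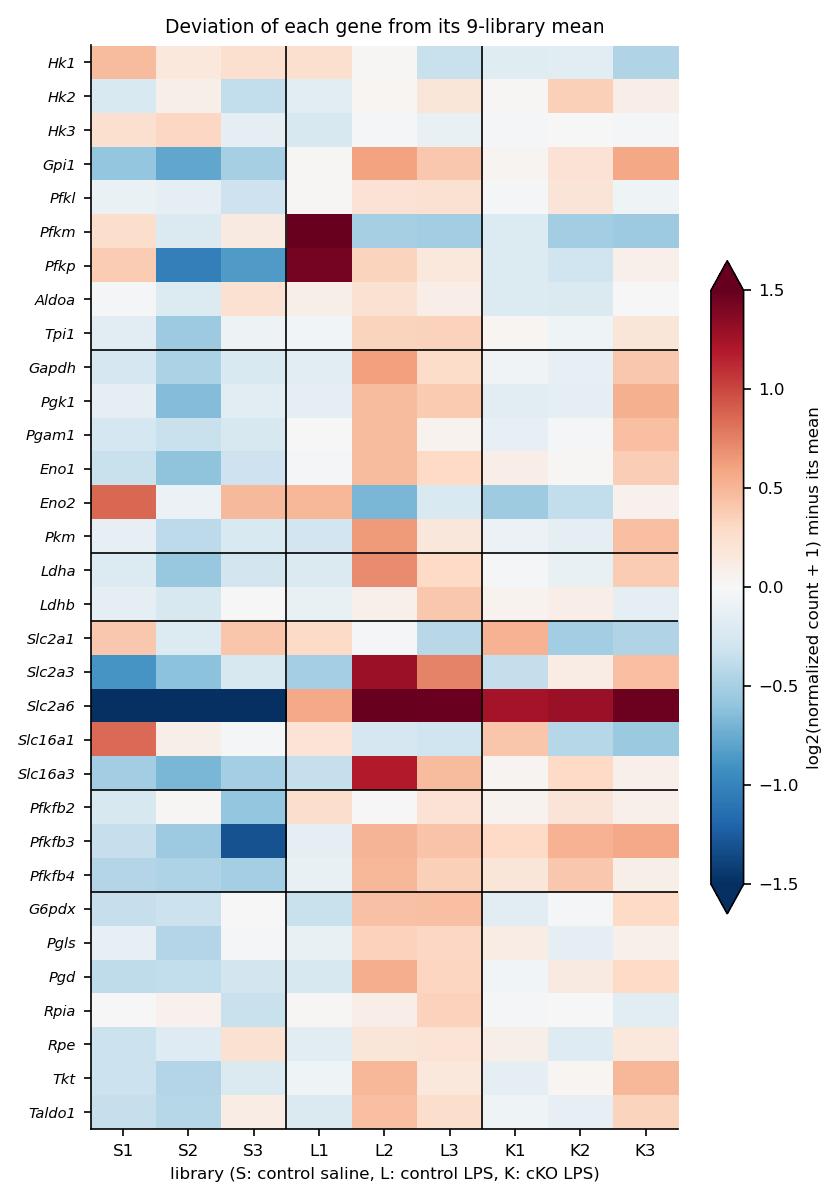
Difference of each gene's log2(normalized count + 1) from its mean over the 9 libraries (columns; S, control saline; L, control LPS; K, cKO LPS), with genes in rows by role; colours end at 1.5 in either direction. The median over the 32 genes was -0.38 to -0.22 in the saline libraries, -0.09, 0.39 and 0.27 in L1 to L3, and -0.02, -0.02 and 0.13 in K1 to K3.

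The comparison of cKO LPS with control LPS asks whether the astrocyte knockout altered these genes in microglia under inflammation. None of the 32 was called by limma, and none of all genes tested was (0% higher and 0% lower, and again 0% and 0% without control LPS library 1). At an unadjusted p under 0.05 limma gave 0 of the 32 and 263 of all genes, edgeR gave 0 and 587, and DESeq2 gave 1, Pfkp, and 562. Of the 32, 0 were called in the authors' deposited table, against 0.00439% of all genes higher and 0.0132% lower. The median log2 fold change of the 32 genes was -0.12, with 3 above 0, where that of all genes was -0.02 and 45.8% were above 0. Without control LPS library 1 it was -0.23, with 7 above 0, where that of all genes was -0.01 and 48.35% were above 0. In that fit 4 of the 32 had an unadjusted p under 0.05, each lower in cKO LPS (G6pdx, Slc16a3, Slc2a3 and Slc2a6), against 639 of all genes (3.86%).

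The largest log2 differences were those of Pfkm (-0.79 ± 0.60, 95% interval -2.15 to 0.56) and Pfkp (-0.79 ± 0.42, -1.72 to 0.15), which include the astrocyte-rich control library and went to 0.09 and -0.39 without it. Slc2a3 (-0.44, -1.39 to 0.50) and Slc16a3 (-0.30, -1.004 to 0.40) followed. For Slc2a6 the difference was -0.15 with an interval of -0.999 to 0.71, and for Gpi1 -0.06 with an interval of -0.49 to 0.37. Without control LPS library 1 the order changed: Slc2a3 came first at -0.95 (interval -1.601 to -0.30, adjusted p = 0.881), then Slc16a3 at -0.69 (-1.15 to -0.24, adjusted p = 0.85) and Slc2a6 at -0.60 (-1.20 to -0.0092, adjusted p = 0.9999), and Gpi1 was at -0.22 (-0.64 to 0.19). For 28 of the 32 genes the interval lay within a change of 2-fold in either direction. Every cKO LPS library lay below every control LPS library for 3 genes (Pfkp, Aldoa and Rpia) and above for 0, against 2.32% and 2.7% of all genes.

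Ratios between genes of a family within a library do not depend on how libraries were scaled. Over 12 ratios fixed by role, the 6 libraries given LPS were set against the 3 saline libraries with a two-sided exact permutation test, whose smallest possible p is 0.0119 over 84 splits. No ratio passed Benjamini-Hochberg adjustment over the 12. For any to pass at the smallest possible p, at least 3 ratios would have to reach it, and 2 did. A single ratio could therefore not pass alone, however large its shift. Slc2a6 to Slc2a1 was 4.54 higher on the log2 scale and Eno2 to Eno1 was -1.26, each without overlap between LPS and saline (exact p = 0.0119, adjusted p = 0.0714). Pfkfb3 to Pfkfb2 was 0.70 higher (exact p = 0.0238, adjusted p = 0.0952) and Hk2 to Hk1 was 0.69 higher (exact p = 0.0357, adjusted p = 0.107). Without control LPS library 1, 9 of the 12 ratios passed, Hk2 to Hk1 at 0.82 and Slc16a3 to Slc16a1 at 1.51 among them (exact permutation test, adjusted p = 0.0306 for both). Leaving out any other single library gave 0, but without a saline library there are only 28 splits with a smallest possible p of 0.0357, and at least 9 of the 12 ratios would have to reach it to pass.

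In terms of family shares per kb, Hk2 went from 42.5% ± 2.8 (SD, n = 3) in control saline to 50.1% ± 3.3 in control LPS and 51.9% ± 2.8 in cKO LPS, while Hk3 went from 46.6% ± 1.9 to 40.6% ± 1.5 and 41.0% ± 2.5. Slc16a3 supplied 53.4% ± 7.8, 74.05% ± 13.6 and 71.99% ± 8.9 of the 2 lactate carriers. Slc2a1 supplied 95.1% ± 1.1, 67.8% ± 15.2 and 70.2% ± 9.6 of the 3 glucose transporters. Pfkfb3 stayed the main Pfkfb gene at 71.3% ± 6.2, 76.2% ± 1.7 and 78.9% ± 2.2, and Ldhb the main lactate dehydrogenase at 80.25% ± 1.6, 75.8% ± 5.6 and 76.5% ± 5.0. These shares are descriptions and were tested only through the ratios.

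**Figure D5:**
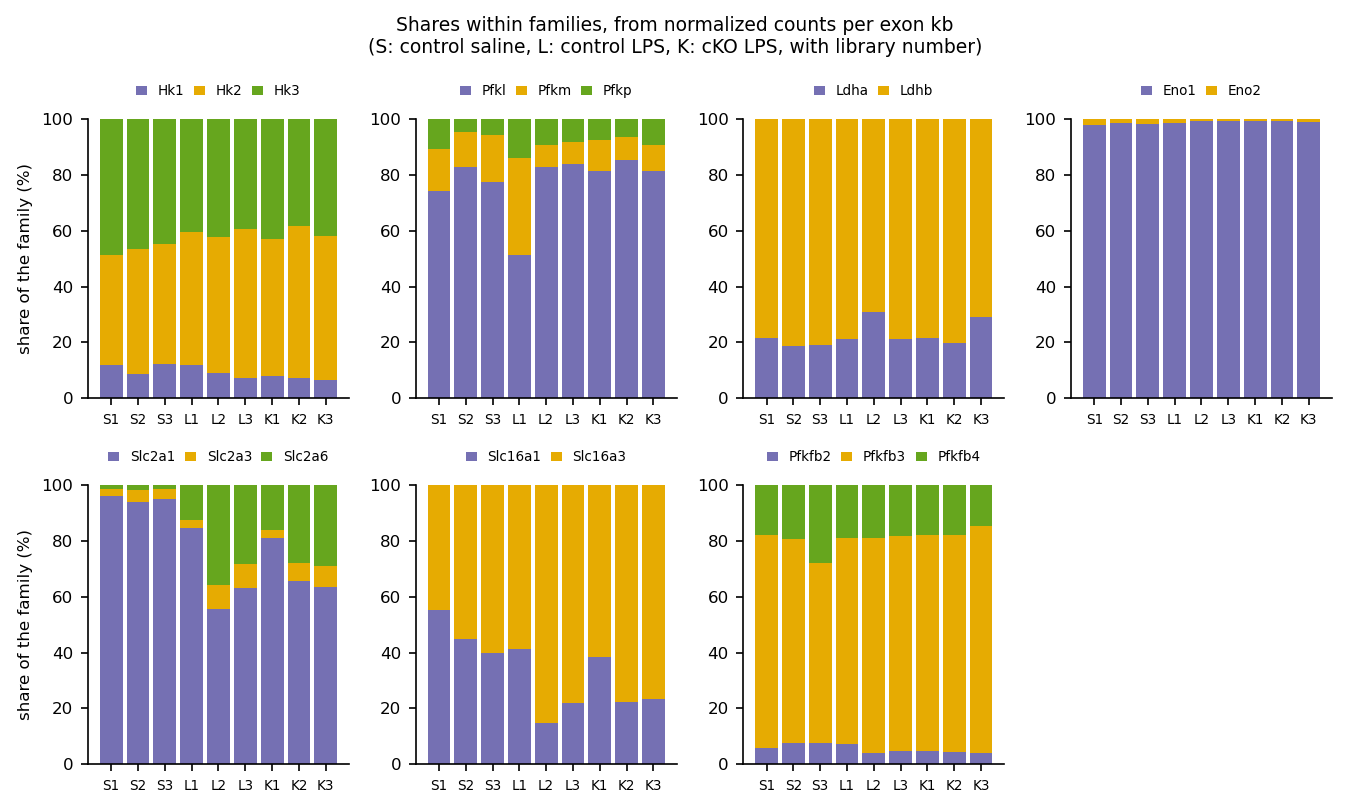
Share of each gene in the summed normalized counts per exon kb of its family, in percent, by library (S, control saline; L, control LPS; K, cKO LPS). Slc2a6 takes 1.39% of its family on average in saline and 25.4% in control LPS, and Pfkm widens in L1.

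The genes around these pathways changed in part in other directions. Of 12 tested genes for further sugar and monocarboxylate carriers, 0 rose and 1 fell in control LPS, and 0 rose and 2 fell in cKO LPS. Without control LPS library 1 in the fit, 1 rose and 1 fell in control LPS, and 1 rose and 2 fell in cKO LPS. Slc2a5, a fructose transporter typical of resting microglia, was at 15042, 19222 and 21960 normalized counts in control saline, 9699, 7387 and 9393 after LPS in controls and 8723, 9862 and 5577 in cKO LPS. The LPS groups lay wholly below saline, with log2 fold changes of -1.08 ± 0.23 (adjusted p = 0.0303) and -1.24 ± 0.23 (adjusted p = 0.015). Txnip, which restrains glucose uptake, had -0.66 ± 0.24 (adjusted p = 0.16) in control LPS and fell in cKO LPS (-1.04 ± 0.24, adjusted p = 0.032). Slc16a7, a pyruvate and lactate carrier, had -0.53 ± 0.16 (adjusted p = 0.107) in control LPS, and Emb, a partner of these carriers, had 2.14 ± 0.95 (adjusted p = 0.268).

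Of 12 tested genes of glycogen metabolism, 3 rose and 0 fell in control LPS, and 2 rose and 0 fell in cKO LPS. With control LPS library 1 out of the fit, 4 rose and 1 fell in control LPS, and 4 rose and 0 fell in cKO LPS. Pygl, the liver form of glycogen phosphorylase that is also used by leukocytes, was at 653, 579 and 648 normalized counts in control saline, 1215, 5181 and 3479 after LPS in controls and 1861, 2317 and 2293 in cKO LPS. All 6 libraries given LPS lay above saline, and library 2 of control LPS, the one with the highest neutrophil sum, was the highest. The log2 fold change was 2.16 ± 0.43 (adjusted p = 0.021) and 1.78 ± 0.43 (adjusted p = 0.0402). Phka2, a regulatory subunit of phosphorylase kinase, rose in both (0.64 ± 0.14, adjusted p = 0.0326, and 0.98 ± 0.14, adjusted p = 0.00512). Gys1, a glycogen synthase, had 0.61 ± 0.18 (adjusted p = 0.0869) in control LPS.

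Of 15 tested regulators of glycolytic genes, 2 rose and 0 fell in control LPS, and 1 rose and 1 fell in cKO LPS. With control LPS library 1 out of the fit, 3 rose and 0 fell in control LPS, and 2 rose and 1 fell in cKO LPS. Egln3, a prolyl hydroxylase of HIF that HIF itself induces, rose from 44.4, 36.0 and 19.3 normalized counts in control saline to 107, 248 and 125 with LPS in control mice and 112, 102 and 112 in the knockout. The libraries did not overlap, and the log2 fold changes were 2.21 ± 0.41 (adjusted p = 0.0164) and 1.76 ± 0.41 (adjusted p = 0.0351). Nfe2l2, the factor of the antioxidant response that drives pentose phosphate genes, rose in control LPS (0.82 ± 0.19, adjusted p = 0.0426), and Hif1a had 0.42 ± 0.18 (adjusted p = 0.244). Myc fell in cKO LPS (-1.08 ± 0.24, adjusted p = 0.0295) and had -0.69 ± 0.24 (adjusted p = 0.152) in control LPS. Myc is itself an immediate-early gene; of 11 other markers of dissociation and immediate-early response, 0 rose and 4 fell in control LPS and 0 rose and 6 fell in cKO LPS, with median log2 fold changes of -0.82 and -1.13. They summed to 566970 to 868460 normalized counts in saline, 392690 to 492530 in control LPS and 283740 to 467400 in cKO LPS, and their part in the Myc values was not tested.

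Of 14 tested further enzymes of glycolysis and gluconeogenesis, 0 rose and 0 fell in control LPS and 1, Pck2, rose in cKO LPS (0.56, adjusted p = 0.0402). Other genes of that list had log2 fold changes in control LPS of 0.45 for Pgm1, -0.41 for G6pc3 and 0.57 for Adpgk. Of 6 further genes of pentose phosphate and ribose use, and of 14 genes for the entry of pyruvate into mitochondria, 0 were called in either direction in both comparisons. In control LPS the log2 fold change was -0.45 for Prps2, 0.44 for Dera, 0.18 for H6pd and 0.18 for Shpk, and 0.28 for Pdha1, 0.65 for Mpc1, 0.34 for Pdk3 and -0.15 for Pdp2. Most calls in these lists depend on which libraries are in the fit. Over the 9 fits that left out 1 library, only the call of Phka2 in cKO LPS held in all. Each of the others held in 2 to 7 and was lost without at least 1 of the saline libraries. Some were also lost without a library of the group not compared. None of the genes in these lists differed between cKO LPS and control LPS past the threshold.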

How the data were processed

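Values are normalized counts as deposited: signal that the authors made from gene counts divided by size factors, for 9 libraries. The submitters' processing notes name build mm10 and the tools DESeq2, edgeR 3.30.3, RSEM, featureCounts, STAR, Trimmomatic, FastQC and MultiQC 1.12; what each was used for, the annotation and the strand setting are not given in the sources used. Per the labels' protocols the libraries came from a stranded kit. The authors' deposited tables of comparisons hold log2 fold changes, p-values and adjusted p-values of 3 comparisons.

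Divided by the step of its library, each value came out as whole reads to within 0.01 (100% of values), and these reads were the counts for edgeR and DESeq2. For the main test, limma-trend (limma 3.58.1, in R 4.3.3) was applied to log2(value + 1) of genes with a mean of at least 10, 1 fit over 9 libraries, 3 contrasts, Benjamini-Hochberg adjustment over 16575 genes within each and a threshold of 0.05; fold changes understate low genes. edgeR 4.0.16 and DESeq2 1.42.0 were alternatives. The fit was tested on simulated data. Exon lengths and gene positions came from GENCODE vM21 (GRCm38). Promoter windows came from RefSeq.

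The genes and lists were chosen with earlier results of these data known. Genes given in full are those called in any contrast, the 4 largest changes per contrast and the smallest p of each role; from each further list up to 4 genes with the smallest p for control LPS were named. Some genes that this rule names are counted in their lists but not reported here. Hk1, Slc2a1, Eno2, Aldoc and Pck2 were described after their values were seen. Of the listed further genes, 8 were not in the table used. No replicate pair agreed within sampling noise. Between saline and cKO LPS libraries with the same number, the correlations of deviations from the group mean were 0.39, 0.24 and 0.35. In each other pair of groups, 1 of 3 was under 0.1. Libraries with unlike numbers were not compared, so these values cannot show whether the numbers pair the libraries.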

Additional observations from a re-analysis of the deposited data

How the results depend on the processing

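For control LPS against control saline the 4 genes called became 8 with DESeq2, 2 in a fit on the 2 groups compared, 15 (14 higher, 1 lower) with array weights, and 1 to 11 when 1 library was left out; Slc2a6 was called in all of these. For cKO LPS against control saline the 4 became 9 with array weights and 1 to 7 when 1 library was left out. Among the fits that left out a library, the share of all genes called is given only without control LPS library 1. It is also not given for DESeq2, array weights, the fit on the 2 groups compared or the replicate block. Those counts show how far the calls move, and not how the 32 genes stand beside all genes. For cKO LPS against control LPS the count was 0 under every alternative run; the log2 difference of Pfkm went from -1.24 to 0.087 and that of Slc16a3 from -0.69 to 0.076 over the fits that left out 1 library, turning sign without control LPS library 1 and 2. The count of isozyme ratios past the threshold was 0 to 9 when 1 library was left out, with 9 only without control LPS library 1. With the replicate block the counts were 3, 0 and 5 in the 3 comparisons. Eno1 was lost in the first, and Hk1 was called lower in the third. Quantile normalization moved the median log2 change of all genes in control LPS to -0.10 and that of the 32 to 0.32 with 3 called. The cause of these shifts was not tested. At the depth of saline library 3, 1 read was worth 3.21 normalized counts, against 0.424 to 1.39 in the other libraries, so low values are coarsest there.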
